A study of Mus musculus with 34 samples.

Results

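Histones carry methyl and acetyl groups on lysines, and the enzymes that place and remove these groups were examined here in hematopoietic stem cells (HSCs) with and without Ythdf2. The members were taken by gene name: every row of the count table named Kdm, Kmt, Setd (including Setdb), Kat or Hdac with its number, plus Ep300 and Crebbp. This gave 56 of 13108 gene rows, which comprised 8 H3K4 methyltransferases, 10 other SET domain methyltransferases, 10 lysine acetyltransferases, 11 histone deacetylases and 17 lysine demethylases.

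RNA was sequenced from bone marrow HSCs sorted as LSK CD48-CD150+ cells in samples of 100 cells. SMART-Seq2, which copies whole transcripts of small cell numbers into cDNA, was used for the libraries. Ythdf2 CKO mice were Ythdf2 fl/fl;Vav-iCre, and Ythdf2 CTL mice were Ythdf2 fl/fl without Cre. The strain was C57BL/6 throughout, and all mice carried the floxed allele, in which GFP is fused to YTHDF2. There were 4 young CTL, 4 young CKO, 4 CTL mice aged for 1 year and 5 CKO mice aged for 1 year, with 2 libraries per mouse. Vav-iCre acts throughout the hematopoietic system, so the deletion was not limited to HSCs.

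YTHDF2 is a reader of N6-methyladenosine in mRNA and promotes the decay of the transcripts it binds. The enzymes described here act on chromatin. Methylation of H3K4 by the KMT2 (MLL) and SETD1 enzymes marks promoters and enhancers of active genes, and KDM1 and KDM5 enzymes remove it. Acetyltransferases such as p300 (Ep300) and its paralog CBP (Crebbp) open chromatin at enhancers, and histone deacetylases reverse acetylation within corepressor complexes. In HSCs, Kmt2a, Kat6a, Kat7, Crebbp and Hdac3 are known to be needed for self-renewal or maintenance, and several of the genes are mutated or rearranged in leukemia.

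The targeted gene was read first. In young mice Ythdf2 was at 118, 123, 93.4 and 97.2 CPM (counts scaled to library size) in CTL mice and at 55.6, 57.6, 60.3 and 50.3 CPM in CKO mice. The groups did not overlap (two-sided exact permutation test over mice, p = 0.0286, the smallest that 4 against 4 mice can give). In 1-year mice it was at 179, 164, 142 and 70.5 CPM in the mice labelled CTL 65, 99, 114 and 124, and at 75.8, 87.8, 73.8, 188 and 72.4 CPM in those labelled CKO 78, 81, 94, 121 and 122. The mice labelled CTL 124 and CKO 121 thus went against their labels, and the exact permutation test over all 9 mice gave p = 0.246. Without both mice the log2 difference was -1.06, which is a description with no test, since these mice were picked out by this gene. They were kept under their labels, and values without them are given beside most members whose genotype difference is described in 1-year mice. Cre removes an exon of Ythdf2, so reads from the rest of the transcript can still be counted in CKO mice.

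Counts per mouse were between 2218618 and 10125624, and a floor of 3 counts was worth between 0.292 and 1.24 CPM. One library of CTL mouse 99 had 187034 counts and was left out. The summed CPM of 8 megakaryocyte and platelet markers was between 572 and 939 in young CTL, between 1069 and 3233 in young CKO, between 440.2 and 661 in 1-year CTL and between 634 and 2254 in 1-year CKO mice. In young mice Pf4, a platelet chemokine, had the highest level of the 8 markers, at 297 to 638 CPM in CTL and 745 to 2765 CPM in CKO mice. Vwf, at 9.58 to 25.5 against 35.8 to 55.7 CPM, and Ppbp, at 4.50 to 9.12 against 12.1 to 28.8 CPM, were also higher in every young CKO mouse. Itga2b, Gp1bb, Gp5 and Treml1 overlapped between the young groups, and Gp9 was at 75.9 to 97.7 CPM in CTL and 43.7 to 76.1 CPM in CKO mice. Lymphoid markers (4 of 8 listed had rows) summed to 29.6 to 35.4 CPM in young CTL and 17.5 to 40.1 in young CKO mice. At 1 year these sums were 20.6 to 129 CPM in CTL and 11.0 to 34.9 CPM in CKO mice. The 10 HSC markers summed to between 1284 and 1546 CPM in young CTL and between 1682 and 2041 CPM in young CKO mice, without overlap, with Ly6a (Sca-1) at 254 to 340 against 417 to 907 CPM. At 1 year their sums were between 1318 and 2628 CPM in CTL and between 1729 and 2290 CPM in CKO mice. The 8 myeloid markers summed to 933 to 1059 CPM in young CTL, 1043 to 1249 in young CKO, 569 to 1240.2 in 1-year CTL and 797 to 1262 CPM in 1-year CKO mice. In bulk samples, fewer cells of a type and less RNA per cell cannot be told apart, and the part of these markers in the results was not tested.

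Hdac1, Hdac3 and Hdac2 were the most abundant members per length. Hdac1, a catalytic subunit of the Sin3, NuRD and CoREST complexes, had a mean level of 98.3 CPM per kb of exon over all mice. Hdac3, the subunit of the NCoR/SMRT complex, was at 95.7 and Hdac2 at 73.4 CPM per kb. The other deacetylases were at 23.5 CPM per kb (Hdac10) or less, down to 0.737 (Hdac9, a class IIa enzyme), the lowest level of all members. Among acetyltransferases, Kat7 (HBO1) was the highest at 35.0 and Kat6b the lowest at 2.02 CPM per kb. Ep300 was at 4.74 and Crebbp at 3.73 CPM per kb. Kdm1a (LSD1), an amine oxidase that demethylates H3K4, led the demethylases at 31.4 CPM per kb. Kdm7a, a Jumonji demethylase of H3K9 and H3K27, was at 2.34, and the Y-linked Kdm5d was lowest at 0.933. Kmt2e led the H3K4 group at 20.4 and Kmt2b was lowest there at 1.99 CPM per kb. The H3K4 methyltransferases also had the longest transcripts, with a median exon length of 8.67 kb against 4.07 kb for the other SET domain enzymes and 4.14 kb for the deacetylases. Kmt5a, which monomethylates H4K20, led the other SET domain enzymes at 24.2 CPM per kb, and Kmt5b, which adds further methyl groups there, was lowest at 4.25. Libraries of the same mouse differed in the median over members by 0.474 on the log2 scale (16 pairs). Between mice of a group, with libraries summed, the median SD was 0.45. These are unlike measures, an absolute difference of single libraries and an SD, so they do not compare the 2 spreads.

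In young mice no member passed the test between genotypes. edgeR's quasi-likelihood test, adjusted after Benjamini and Hochberg, called 0 of the 56 members, where 0.174% of 11526 genes were called, and DESeq2 and the likelihood ratio test over libraries also called 0. At an unadjusted p below 0.05, 1 member was higher (background 4.26% of genes) and 3 were lower in CKO mice (background 2.8%). The median log2 fold change of the members was -0.03, beside -0.00 over all genes tested. The members' shares at the unadjusted p were 1.79% (higher) and 5.36% (lower). The 3 lower members became 0 with Y-linked genes as a covariate (background 3.19%), 6 with the length trend removed (background 3.4%) and between 1 and 7 when each mouse was left out in turn (background between 2.03% and 3.98%).

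The member with the smallest p in young mice was Hdac10, a class IIb deacetylase known mainly as a polyamine deacetylase. It was at 32.1, 50.1, 30.9 and 27.0 CPM in CTL mice and at 60.1, 62.0, 57.6 and 51.1 CPM in CKO mice. It was the sole member whose CKO mice were all above the CTL mice (2.68% of all genes), and the log2 fold change was 0.72 ± 0.23 (SE) with an adjusted p of 0.414 by edgeR. Kmt5a was at 57.6, 53.8, 38.0 and 51.5 CPM in CTL and at 39.9, 34.6, 31.0 and 32.8 CPM in CKO mice, and these ranges overlapped. Its log2 fold change was -0.54 ± 0.21 (edgeR adjusted p = 0.588).

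In 5 members, all young CKO mice were below all young CTL mice, where 2.09% of all genes had that order. Setd1b, a catalytic subunit of a COMPASS complex that methylates H3K4, was at 22.7, 32.0, 19.3 and 19.1 CPM in CTL and at 15.03, 14.1, 14.7 and 13.4 CPM in CKO mice. Setd6, known to methylate the NF-kB subunit RelA, was at 48.2, 35.4, 51.0 and 43.4 CPM in CTL and at 35.0, 27.8, 31.2 and 29.1 CPM in CKO mice. Setd5, Kdm2a and Kdm3b were the others. Their edgeR log2 fold changes were -0.70 ± 0.30 for Setd1b, -0.53 ± 0.22 for Setd6 and -0.48 ± 0.23 for Setd5, with adjusted p between 0.611 and 0.707.

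Ep300 in young mice was at 37.0, 53.8, 32.4 and 39.4 CPM in CTL and at 28.7, 15.5, 41.3 and 19.7 CPM in CKO mice. One CKO mouse lay within the CTL range, and the log2 fold change was -0.63 ± 0.30 (edgeR adjusted p = 0.715). Kdm7a was at 16.1, 17.2, 19.5 and 13.3 CPM in CTL and at 21.6, 12.2, 29.8 and 13.8 CPM in CKO mice, with the groups interleaved. Crebbp was also interleaved, at 20.0, 43.0, 13.1 and 25.0 CPM against 27.7, 14.4, 37.5 and 17.6 CPM. Of the remaining members with the smallest p among those higher in CKO mice, Kdm5b had a log2 fold change of 0.46 ± 0.25, Hdac8 of 0.75 ± 0.44 and Kat6a of 0.42 ± 0.29. Without CKO mouse 3, Kdm5b was at 0.20 and Kat6a at 0.10, and Kat6a was at 0.16 with Y-linked genes as a covariate. Hdac8 depended on CKO mouse 2, which was at 29.6 CPM while the other 3 CKO mice were between 13.6 and 15.6 CPM.

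In 1-year mice the members lay lower in CKO than in CTL mice in the median, while again no member was called by the quasi-likelihood test. Ep300 and Kdm7a had the largest differences relative to their errors, and both had groups that did not overlap. The 8 H3K4 methyltransferases all had negative log2 fold changes (7 of 8 with the trend on exon length removed), and the deacetylases were divided. In young mice 7 of these 8 methyltransferases were negative as well, with a median of -0.34. In 1-year mice the quasi-likelihood test called 0 of 55 members and 0% of 11961 genes. DESeq2 called Ep300 and Kdm7a (2 members), both lower in CKO mice, and 104 genes in all (0.869%). The likelihood ratio test with each library as a replicate, which counts each mouse more than once, called 6 members: Ep300, Kmt2e, Setd1b, Kdm7a, Kdm5a and Kmt2a, all lower. It called 420 of 11261 genes (3.73%). At an unadjusted p below 0.05 by the quasi-likelihood test, 10 of 55 members were lower (18.2%, background 5.65%) and 1 was higher (background 4.45%). The lower members numbered 5 (9.09%, background 5.23%) with the length trend removed, 8 (14.5%, background 6.05%) without mice 121 and 124, 7 (12.7%, background 4.61%) without CTL mouse 124 alone, 7 (12.7%, background 3.77%) without CKO mouse 78 and 15 (27.3%, background 6.56%) without CKO mouse 121 alone. The median log2 fold change was -0.31 over the members and -0.00 over all genes, and 37 of 55 members were negative. The members' median was -0.13 without CTL mouse 124. Without the mice labelled CTL 124 and CKO 121 the members' median was -0.27 and no member was called, where 40 of 12005 genes were called (0.333%). The class medians were then -0.54 for the H3K4 methyltransferases (8 of 8 negative), -0.36 for the demethylases, -0.19 for the acetyltransferases, -0.09 for the other SET domain enzymes and 0.00311 for the deacetylases.

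Ep300, the acetyltransferase p300, was at 69.9, 68.5, 88.7 and 102 CPM in CTL mice 65, 99, 114 and 124. In CKO mice 78, 81, 94, 121 and 122 it was at 36.0, 36.8, 42.4, 23.2 and 36.0 CPM. Every CTL mouse was above every CKO mouse. The log2 fold change was -1.23 ± 0.23 (edgeR p = 0.000121, adjusted p = 0.205, rank 5 of all genes tested), and DESeq2 gave an adjusted p of 0.000913. Without mice 121 and 124 it was -1.01, with an edgeR adjusted p of 0.0753. The adjusted p by edgeR lay between 0.111 and 0.577 when each mouse was left out in turn.

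Kdm7a was at 28.5, 39.2, 36.7 and 60.3 CPM in CTL mice and at 8.91, 12.6, 18.7, 15.4 and 17.4 CPM in CKO mice. The highest CKO mouse was again below the lowest CTL mouse. The log2 fold change was -1.49 ± 0.32 (edgeR p = 0.000446, adjusted p = 0.281, rank 19 of all genes), and -1.28 with an adjusted p of 0.15 without mice 121 and 124. Hdac11, the class IV deacetylase, was the third member without overlap, at 22.8, 26.4, 30.4 and 34.0 CPM in CTL and at 13.0, 10.03, 9.54, 22.5 and 15.3 CPM in CKO mice. There the nearest mice, CTL 65 and CKO 121, were almost equal, and the libraries of a mouse differed by 0.971 on the log2 scale in the median. Without mice 121 and 124 the log2 fold change of Hdac11 was -1.15 (edgeR adjusted p = 0.206). Over all 9 mice, an order without overlap and with CKO lower was seen in 5.45% of the members tested and in 1.7% of all genes, and 0 members had the opposite order (1.78% of genes).

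**Figure D1:**
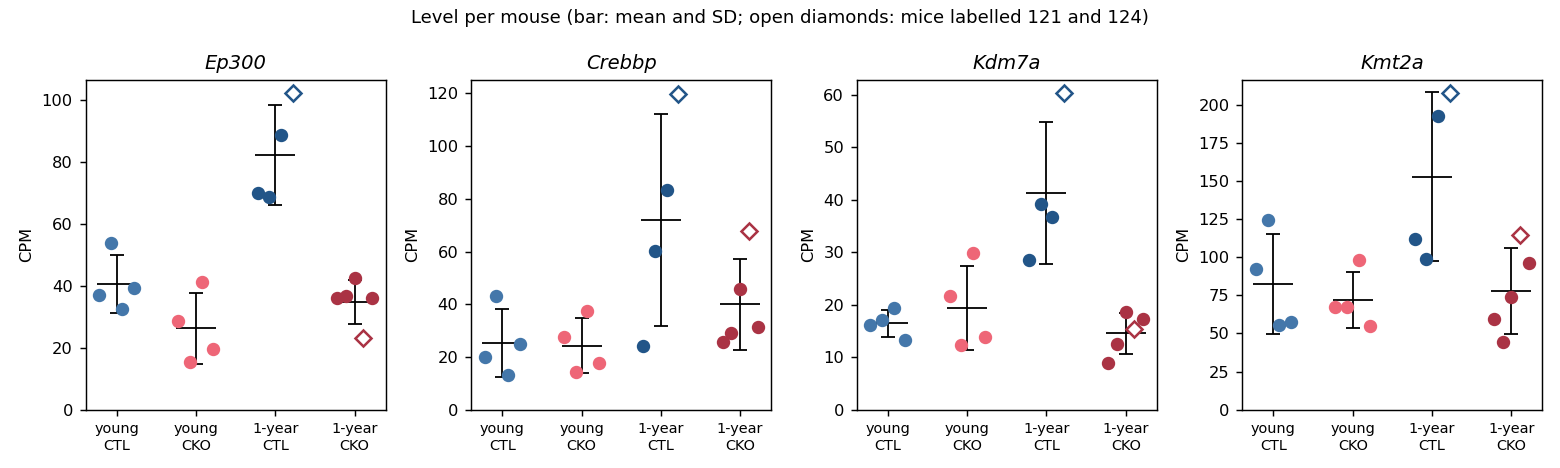
Levels of Ep300, Crebbp, Kdm7a and Kmt2a in CPM (y axis) for each mouse of the 4 groups (x axis), with the mean and SD as bars and the mice labelled 121 and 124 as open diamonds. In 1-year mice Ep300 lay between 68.5 and 102 CPM in CTL and between 23.2 and 42.4 CPM in CKO mice, whereas Crebbp overlapped between the genotypes.

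Crebbp, the paralog of Ep300, spread more widely. It was at 24.2, 60.2, 83.5 and 119.8 CPM in 1-year CTL mice and at 25.7, 29.1, 45.7, 67.8 and 31.5 CPM in 1-year CKO mice. CTL mouse 65 was below all CKO mice, and the log2 fold change was -0.84 ± 0.40 (edgeR adjusted p = 0.504). It was -0.76 without mice 121 and 124, -0.49 without CTL mouse 124 alone and -0.44 with a trend on exon length removed from each mouse, an alternative chosen after seeing the data. Kat6a (MOZ) had a similar value, -0.83 ± 0.39, and CTL mouse 124 stood far above the others at 111 CPM while the remaining CTL mice were between 26.5 and 48.4 CPM. The value of Kat6a was -0.24 without mice 121 and 124 and -0.46 with the length trend removed. Of the 10 acetyltransferases, 7 were negative and 3 positive. The positive members with the smallest p, Kat14 and Kat5, had log2 fold changes of 0.42 ± 0.33 and 0.34 ± 0.35. Without mice 121 and 124 Kat14 was at 0.07 and Kat5 (TIP60) turned to -0.07.

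The H3K4 methyltransferases ranged from -1.02 (Setd1b) to -0.26 (Kmt2d) on the log2 scale, with a median of -0.67. With the length trend removed the median was -0.40 and Kmt2d turned to 0.24. Without mice 121 and 124 Setd1b was at -0.69 and Kmt2d at -0.45. Kmt2a (MLL1) was at 112, 99.0, 193 and 208 CPM in 1-year CTL and at 59.4, 44.6, 73.9, 115 and 96.2 CPM in CKO mice. CKO mouse 121 lay above CTL mice 65 and 99, and the log2 fold change was -0.97 ± 0.29 (edgeR adjusted p = 0.329), or -0.98 (0.182) without mice 121 and 124. Kmt2e (MLL5), which has little known methyltransferase activity of its own, was at 133, 198, 232 and 259 CPM in CTL and at 142, 120.2, 142, 155 and 121 CPM in CKO mice. The lowest CTL mouse fell within the CKO range, and the log2 fold change was -0.59 ± 0.20 (edgeR adjusted p = 0.38), or -0.52 (0.339) without mice 121 and 124 and -0.37 (0.512) with the length trend removed. As a sum, the 8 genes were at 782 ± 237 CPM in CTL (SD, n = 4) and 512 ± 116 CPM in CKO mice (SD, n = 5), and these sums overlapped, between 531 and 1063 against between 430.3 and 717 CPM.

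Among the demethylases, 12 of 16 tested were negative, with a median of -0.35, and 10 of 16 with the length trend removed, with a median of -0.09. Kdm5a, which removes H3K4 methylation, was at 151, 132, 153 and 205 CPM in CTL and at 137, 97.3, 111, 107 and 111 CPM in CKO mice, with a log2 fold change of -0.50 ± 0.18 (edgeR adjusted p = 0.398), or -0.35 (0.461) without mice 121 and 124 and -0.15 (0.83) with the length trend removed. CKO mouse 78 lay above CTL mouse 99. Kdm1b (LSD2) and Kdm3b, an H3K9 demethylase, had -0.88 ± 0.39 and -0.59 ± 0.27, and without mice 121 and 124 they had -0.94 and -0.59. The deacetylases had a median of 0.09 with 7 of 11 positive, and the other SET domain enzymes a median of -0.06 with 4 of 10 positive. Hdac3 was the member with the smallest p among those higher in CKO mice, at 242, 145, 201 and 106 CPM in CTL and at 272, 254, 237, 252 and 227 CPM in CKO mice. One CTL mouse lay within the CKO range, and the log2 fold change was 0.52 ± 0.22 (edgeR adjusted p = 0.439), or 0.33 (0.531) without mice 121 and 124. Hdac10 had 0.36 ± 0.27 in 1-year mice, or 0.18 without mice 121 and 124. Kmt5a was nearly equal between the genotypes at -0.01 ± 0.19, or 0.01 without these mice.

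**Figure D2:**
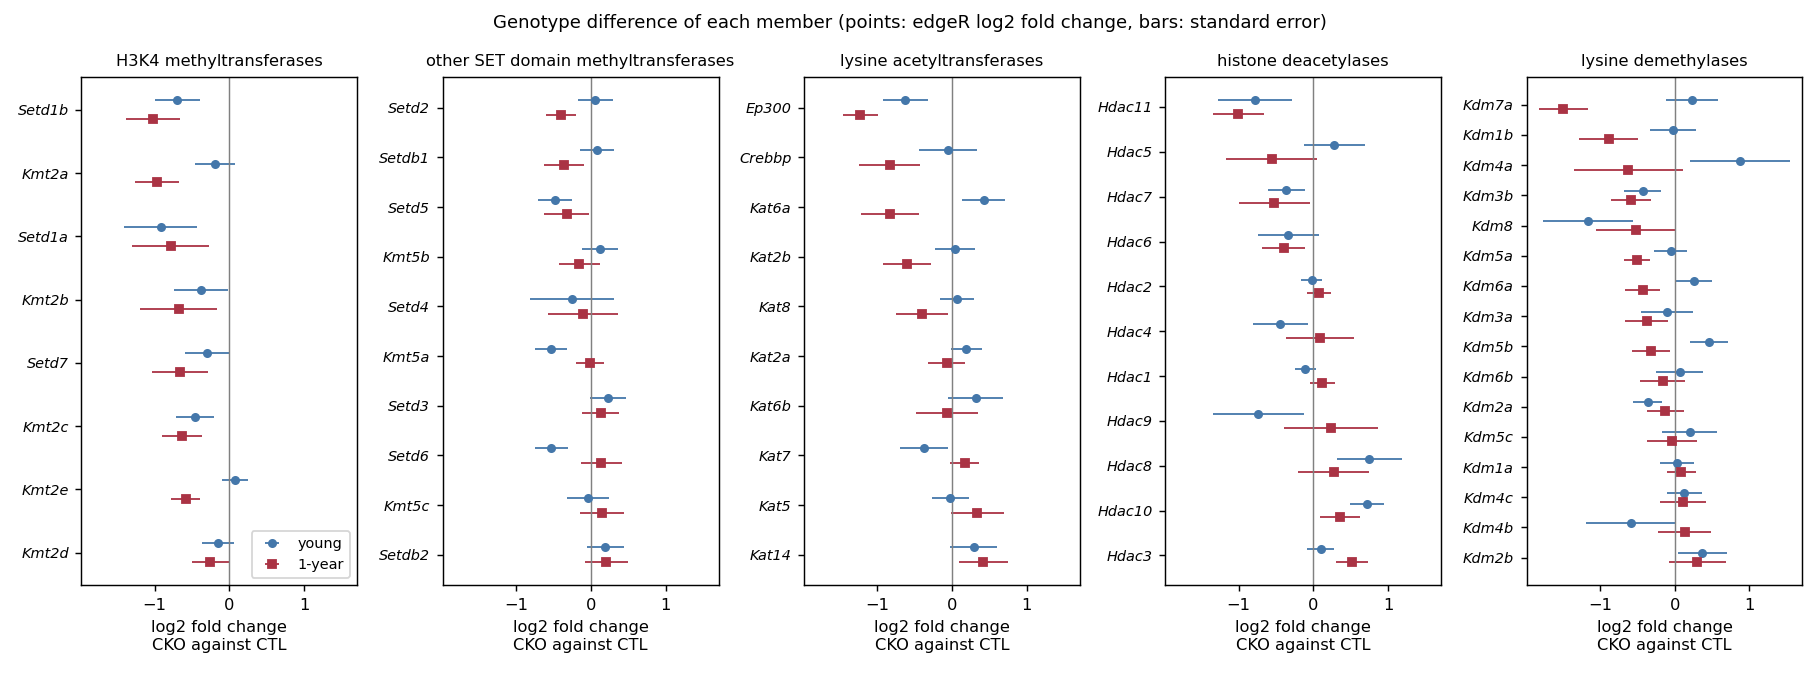
Log2 fold change of CKO against CTL mice (x axis) for each member (y axis, 1 panel per class), with points from edgeR and bars of 1 standard error, circles for young and squares for 1-year mice (Kdm5d not drawn). All 8 H3K4 methyltransferases lie below 0 in 1-year mice (7 of 8 with the length trend removed, not drawn), with Ep300 and Kdm7a at -1.23 and -1.49, while 7 of 11 deacetylases lie above 0. In young mice 7 of the 8 H3K4 methyltransferases lie below 0.

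Exon length moved with these values. Over all genes tested in 1-year mice, the median log2 fold change was 0.02 for exon lengths under 2 kb, 0.08 from 2 to 4 kb, -0.05 from 4 to 6 kb, -0.22 from 6 to 8 kb and -0.35 above 8 kb. The members followed the same order with larger negative medians, -0.39, -0.45 and -0.57 in the last 3 bins (14, 8 and 16 members). In young mice no such order was seen over all genes, with bin medians between -0.03 and 0.02. Across the 55 members the 1-year log2 fold change and log2 length had a Pearson r of -0.49 and a Spearman rho of -0.52, a description over genes that share the same libraries. Per mouse, the log2 level of genes above 8 kb minus that of genes under 2 kb was between 0.12 and 0.73 in 1-year CTL mice, highest in mouse 124, and between -0.11 and 0.29 in 1-year CKO mice, highest in mouse 121. It was between -0.33 and -0.04 over both young groups. Ep300 and Kdm7a have 9.57 kb of exon each. With the trend on length removed from each mouse, an alternative chosen after seeing the data, Ep300 had a log2 fold change of -0.91 and Kdm7a of -1.17 (edgeR adjusted p = 0.338 for both), Kmt2a of -0.47, and the median over members was -0.15. What gave rise to the length order was not tested.

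**Figure D3:**
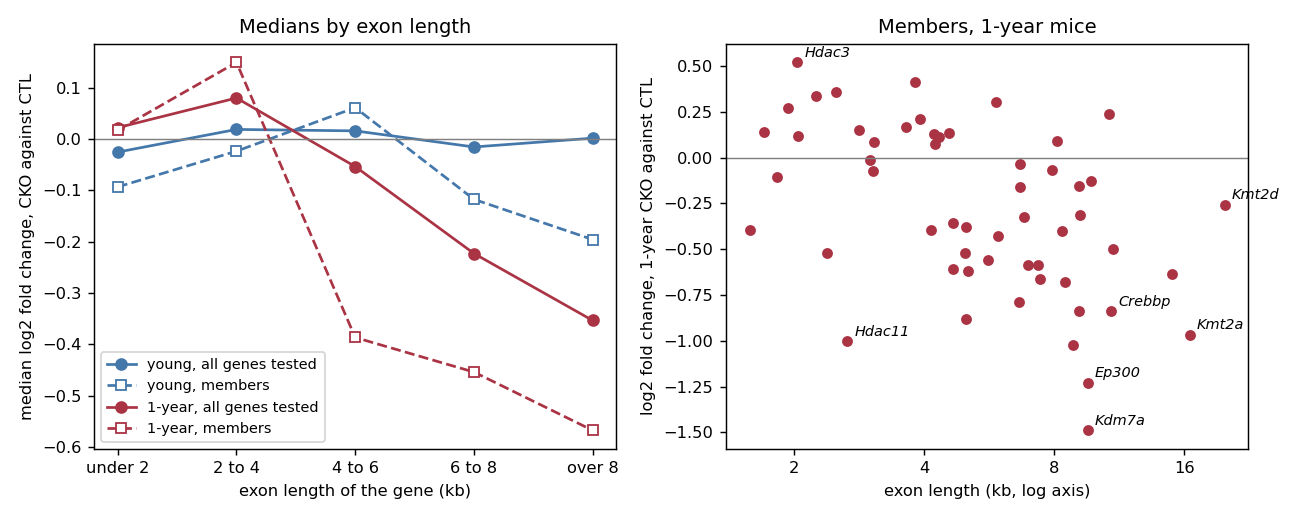
Left, the median log2 fold change of CKO against CTL mice (y axis) by exon length in kb (x axis) for all genes tested and for the members, in young and 1-year mice. Right, each member in 1-year mice, with exon length on a log axis. The all-gene median drops to -0.35 above 8 kb in 1-year mice, and Hdac11, with 2.65 kb, is a short member at -1.003.

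The difference of the genotype effect between ages was tested in 1 fit of all 17 mice. It called 0 of 56 members and 0% of 12352 genes by edgeR, and DESeq2 and the likelihood ratio test over libraries also called 0 members. At an unadjusted p below 0.05, 3 members had a more negative effect at 1 year (background 2.7% of genes) and 0 a more positive one (background 2.06%), and without CTL mouse 124 each count was 1 (background 2.94% and 2.67%). The largest was Kdm7a, whose genotype difference moved from 0.23 in young to -1.49 in 1-year mice, with an interaction of -1.73 ± 0.47 (edgeR p = 0.00134, adjusted p = 0.942, rank 10 of all genes), or -1.50 (0.432) without mice 121 and 124. Kmt2e had an interaction of -0.67 ± 0.27 and Kat6a of -1.27 ± 0.53, which was -0.65 without mice 121 and 124. For Ep300 it was -0.61 ± 0.39 (-0.37 without these mice, -0.31 without young CKO mouse 3 and -0.28 with the length trend removed), so its lower level in CKO mice was not shown to differ between the ages. Kdm5b, an H3K4 demethylase, had -0.78 ± 0.38 (-0.48 with the length trend removed), and the positive members with the smallest p were Setd6 (0.67 ± 0.35), Kmt5a (0.52 ± 0.27), Hdac3 (0.42 ± 0.29) and Kat7 (0.53 ± 0.41). Hdac3 had 0.24 without mice 121 and 124, and Kat7 had 0.25 without young CKO mouse 3 and 0.81 without young CKO mouse 4. The members' median was -0.20, beside -0.02 over all genes, and -0.05 with the length trend removed.

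Levels were then compared between 1-year and young mice of the same genotype. The sample descriptions name different library submissions for young and 1-year mice, so age and submission cannot be told apart, and these values describe the libraries. In CTL mice 14 members were called higher by edgeR (25%, background 6.7%) and 1 lower (background 8.07%). In CKO mice 6 were called higher (10.7%, background 7.21%) and 0 lower (background 9.34%). An unadjusted p below 0.05 was seen for 14 members higher (25%, background 14.7%) and 1 lower (background 15.4%) in CKO mice, and without mouse 121 for 8 higher (14.3%, background 12.5%). DESeq2 and the likelihood ratio test each called 1 member, Hdac2, lower in CKO mice, and 7 and 8 members higher. In both directions together these tests called 20.7% and 26.5% of all genes. The contrasts share no mice. The median log2 fold change was 0.60 in CTL and 0.40 in CKO mice, beside 0.11 and 0.07 over all genes. Without mice 121 and 124 the medians were 0.39 and 0.26, beside 0.10 and 0.05 over all genes, and with the length trend removed 0.34 and 0.29, beside 0.08 and 0.05. The members' share of all counts was 0.264% ± 0.0217 (SD, n = 4) in young CTL, 0.256% ± 0.0153 (n = 4) in young CKO, 0.377% ± 0.0387 (n = 4) in 1-year CTL and 0.331% ± 0.0319 (n = 5) in 1-year CKO mice.

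Kmt5a had the smallest p in both genotypes. In CTL mice it rose from the young values of 38.0 to 57.6 CPM to 88.8, 89.5, 91.5 and 129 CPM at 1 year (log2 fold change 0.99 ± 0.20, edgeR adjusted p = 0.00334). In CKO mice it rose from between 31.0 and 39.9 CPM to 89.8, 96.2, 84.3, 129.6 and 92.6 CPM (1.51 ± 0.20, adjusted p = 0.000141, rank 9 of all genes). The ages did not overlap in either genotype, and the mice labelled 124 and 121 were the highest of their groups. Without both mice the values were 0.84 and 1.39 (edgeR adjusted p = 0.00416 and 7.28e-05). Kmt2d (MLL4) and Kdm2a, an H3K36 demethylase, also passed in both genotypes. Kmt2d rose by 0.99 ± 0.25 in CTL and 0.88 ± 0.24 in CKO mice, and Kdm2a by 0.71 ± 0.23 and 0.94 ± 0.22 on the log2 scale. With the length trend removed, Kmt2d had 0.65 in CTL mice (edgeR adjusted p = 0.0818) and Kdm2a 0.42 (0.201). In CKO mice they had 1.06 (0.00472) and 0.90 (0.0057) in that fit. Without mice 121 and 124, Kmt2d had 0.94 in CTL and 0.65 in CKO mice, and Kdm2a 0.68 in both. When each of the 17 mice was left out in turn, Kmt2d lost its call in CKO mice in 3 fits (without young CKO mice 1 or 2 or CKO mouse 121, adjusted p up to 0.0676). Kdm2a lost its call in CTL mice in 13 of these fits (adjusted p up to 0.113), among them each fit without a CTL mouse, and also with Y-linked genes as a covariate.

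In CTL mice Ep300, Kdm7a and Crebbp were higher in the 1-year than in the young libraries. Ep300 went from between 32.4 and 53.8 CPM to between 68.5 and 102 CPM (log2 fold change 1.02 ± 0.28, edgeR adjusted p = 0.0207), and Kdm7a from between 13.3 and 19.5 to between 28.5 and 60.3 CPM (1.32 ± 0.34, adjusted p = 0.0147). Neither overlapped between the ages. Ep300 had 0.72 with the length trend removed (edgeR adjusted p = 0.0688) and was not called without young CTL mouse 1, 3 or 4 (adjusted p up to 0.0704). Kdm7a was not called without young CTL mouse 4 (0.0546). Without mice 121 and 124 they had 0.90 and 1.07 (0.0313 and 0.039). Crebbp had 1.51 ± 0.44 (adjusted p = 0.0266), although 1-year CTL mouse 65 at 24.2 CPM lay within the young range, and its adjusted p was 0.0623 without mice 121 and 124 and 0.0513 with the length trend removed. The same contrast in CKO mice was 0.41 ± 0.27 for Ep300, -0.41 ± 0.32 for Kdm7a and 0.72 ± 0.42 for Crebbp, none of them called. The difference between these contrasts is the interaction given above, which no member passed. The other members called in CTL mice were Kdm6a, Kat2a, Kmt2e, Kdm5a, Hdac11, Hdac10, Kdm5b and Kdm6b, all higher, and Hdac2, which fell by 0.50 on the log2 scale (SE 0.16, adjusted p = 0.038). Most of these calls depended on single mice. When each of the 17 mice was left out in turn, the call was lost in 13 fits for Kdm6b, 11 for Kdm5b, 11 for Hdac11, 10 for Hdac10, 5 each for Kmt2e, Kdm5a, Crebbp and Hdac2, 4 for Kat2a and 2 for Kdm6a, with adjusted p up to 0.186. Without mice 121 and 124 together the calls of Kdm6b, Kmt2e, Kdm5a and Hdac11 were lost. With the length trend removed those of Kdm6b, Kdm5b, Kmt2e, Kdm5a, Hdac11 and Kdm6a were lost, and Kdm6a had an adjusted p of 0.0579 with Y-linked genes as a covariate and 0.105 with the length trend removed. Hdac2 was at 354, 335, 378 and 396 CPM in young and at 286, 198, 259 and 291 CPM in 1-year CTL mice, without overlap. Of the named members that were not called in CTL mice, Setdb2 had -0.35 ± 0.26 and Kdm4c -0.25 ± 0.28.

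In CKO mice the other members called were Kdm4b, Kmt5c and Kat7. Kdm4b, a demethylase of H3K9, was at 3.56, 2.56, 9.76 and 11.7 CPM in young and at 21.7, 16.5, 27.2, 27.9 and 33.3 CPM in 1-year CKO mice, with a log2 fold change of 1.87 ± 0.51 (edgeR adjusted p = 0.0148). Kmt5c, an H4K20 methyltransferase, rose by 1.03 ± 0.30 and Kat7 by 0.93 ± 0.29 (adjusted p = 0.0221 and 0.029). Leaving out 1 mouse at a time, Kat7 lost its call in 5 of 17 fits (adjusted p up to 0.106), Kmt5c in 3 (up to 0.0904) and Kdm4b in 1 (0.0578). Hdac2 had -0.41 ± 0.15 (edgeR adjusted p = 0.065), which missed the threshold. It had -0.61 (0.00825) with the length trend removed and -0.35 (0.105) without mice 121 and 124. The negative members with the next smallest p were Kat2b, Kat8 and Kat6a, at -0.55 ± 0.28, -0.56 ± 0.29 and -0.68 ± 0.36, and Kat6a had -0.37 (adjusted p = 0.606) without young CKO mouse 3. The count of called members in CTL mice depended on single mice: it was 4 without young CTL mouse 1, 3 without young CTL mouse 3 and 4 without young CTL mouse 4, and 9, 7 and 9 without 1-year CTL mice 99, 114 and 124. The count over all genes moved as well, from 1825 to 1096, 1092 and 896 without these young mice and to 1226, 1438 and 2009 without these 1-year mice. The members called were 12 without mice 121 and 124 together, where 17.6% of all genes were called, and 9 with Y-linked genes as a covariate, where 14% were. With the length trend removed 5 of 56 members were called, a share below the 10.8% of all genes called in that fit. In CKO mice the members called fell to 3 without young CKO mouse 2 and were 4 without CKO mouse 121, while the genes called fell from 2045 to 1225 and 1574. With the length trend removed 8 members were called in CKO mice, 7 higher and 1 lower, where 15% of all genes were.

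**Figure D4:**
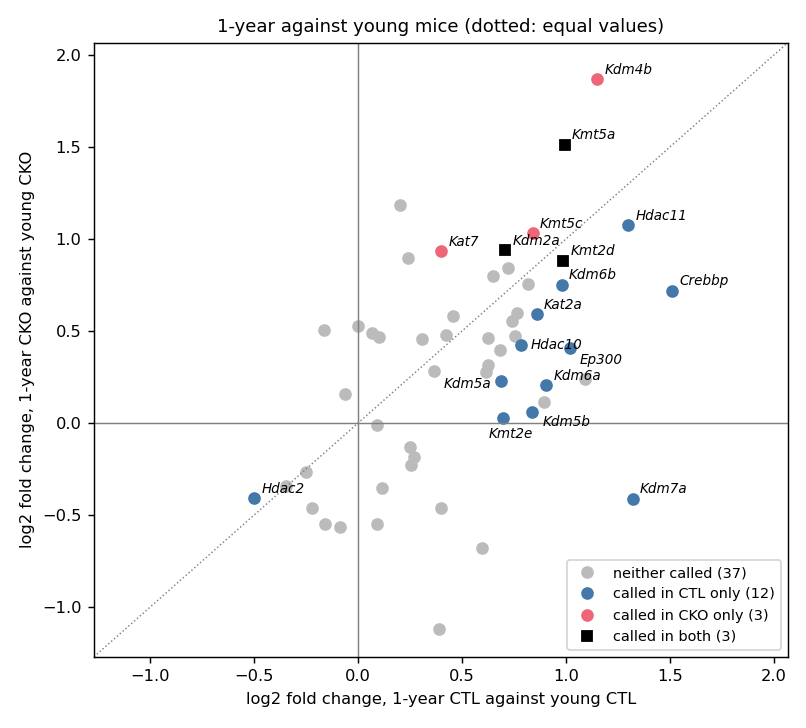
Log2 fold change of 1-year against young mice in CTL (x axis) and CKO mice (y axis), 1 point per member except Kdm5d, coloured by where edgeR called it. Most points lie above 0 in both directions, 3 members were called in both genotypes, and Kdm7a lies at 1.32 in CTL and -0.41 in CKO mice.

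Reads of the Y chromosome were not balanced between the groups. Kdm5d, the Y-linked H3K4 demethylase, was at 28.8, 12.8 and 25.6 CPM in young CTL mice 1 to 3 and at 0 in mouse 4. It was at 23.9 CPM in young CKO mouse 1, at 20.6 CPM in 1-year CTL mouse 99 and at 24.4 CPM in 1-year CKO mouse 78. In the remaining mice of these 3 groups it had 0 counts, which allows up to 3 counts per mouse. In all, 3 of 4 young CTL mice but 1 of 4 young CKO mice carried Kdm5d reads, and its genotype difference cannot be told apart from that imbalance. Its X-linked paralog Kdm5c was at 51.9, 24.2, 21.1 and 69.4 CPM in young CTL and at 25.5, 58.7, 66.8 and 39.1 CPM in young CKO mice. At 1 year it was at 26.1, 20.6, 46.2 and 48.8 CPM in CTL and at 34.5, 28.1, 19.7, 51.6 and 38.1 CPM in CKO mice. The genotypes were interleaved at both ages, and the log2 fold changes were 0.20 ± 0.37 and -0.04 ± 0.34 (at 1 year -0.05 without mice 121 and 124). With Y-linked genes as a covariate the young value of Kdm5c turned to -0.34. Kdm6a (UTX), the X-linked H3K27 demethylase, was at 33.9, 25.8, 29.9 and 47.5 CPM in young CTL and at 43.9, 34.0, 37.1 and 48.8 CPM in young CKO mice (0.26 ± 0.24). It was at 56.0, 56.9, 61.7 and 81.6 CPM in 1-year CTL and at 34.5, 47.1, 65.0, 40.1 and 49.6 CPM in 1-year CKO mice (-0.43 ± 0.24, edgeR adjusted p = 0.562), and the 1-year value was -0.25 without mice 121 and 124.

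**Figure D5:**
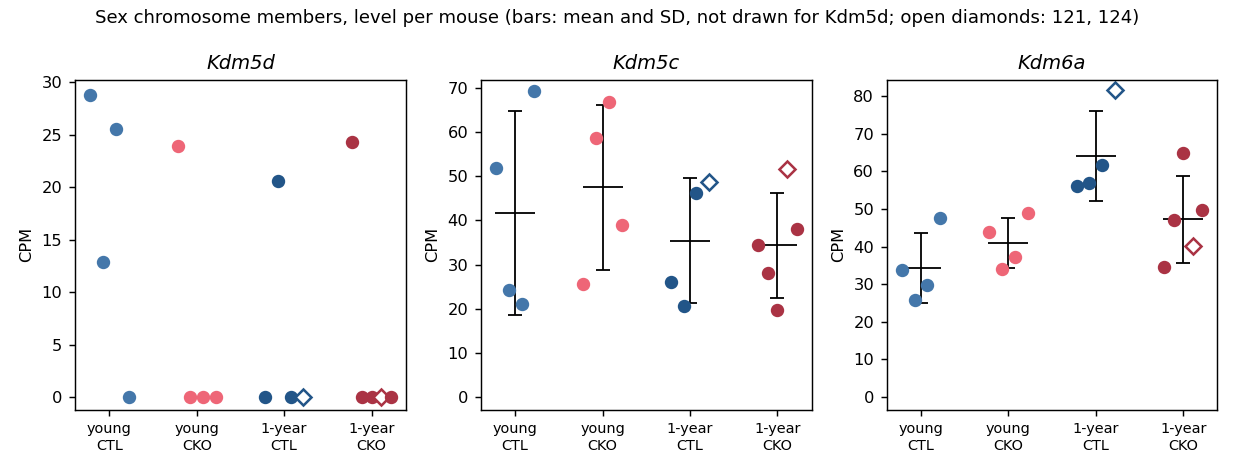
Levels of Kdm5d, Kdm5c and Kdm6a in CPM (y axis) for each mouse of the 4 groups (x axis), with the mean and SD as bars except for Kdm5d, and mice 121 and 124 as open diamonds. Kdm5d was above 0 in 3 young CTL mice and in 1 mouse of each other group.

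Reads of Kdm5c and Kdm5d can be told apart by sequence only where they differ, so both coding sequences were compared. In GENCODE M21 the longest coding sequences have 4662 and 4644 bases, 79% of the 4512 aligned bases are identical, and the longest run without a difference is 35 bases. The most alike stretch of 90 bases without a gap, at coding bases 1753 to 1842 of Kdm5c (chromosome X) and 1750 to 1839 of Kdm5d (chromosome Y), differs at 7 positions, shown in capitals.
Kdm5c: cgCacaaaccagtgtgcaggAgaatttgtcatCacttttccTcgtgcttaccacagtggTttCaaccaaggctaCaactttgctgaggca
Kdm5d: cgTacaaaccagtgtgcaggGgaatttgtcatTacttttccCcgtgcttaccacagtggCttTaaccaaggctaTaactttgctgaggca
In the 11 mice without Kdm5d counts, Kdm5c was at up to 69.4 CPM, so its reads were not counted on Kdm5d. For Ep300 and Crebbp, 76.8% of 6328 aligned coding bases are identical and the longest shared run is 29 bases.

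Promoters were read from RefSeq (GRCm38.p6), which held a window of 250 bases before to 50 after the start for 44 of the 56 members. Kdm7a and Kmt2a are shown as members of different classes that the test over libraries called lower in 1-year CKO mice, and Kmt5a because it had the smallest p between ages. The windows of Ep300 and Crebbp lie in annotated first exons and are not printed. Only bases upstream of the GENCODE exons are printed, and capitals mark the motifs found: the GC box GGGCGG and the ETS core CCGGAAG, on either strand (CCGCCC is the GC box read on the other strand).
Kdm7a, chr6:39206790-39207023, minus strand: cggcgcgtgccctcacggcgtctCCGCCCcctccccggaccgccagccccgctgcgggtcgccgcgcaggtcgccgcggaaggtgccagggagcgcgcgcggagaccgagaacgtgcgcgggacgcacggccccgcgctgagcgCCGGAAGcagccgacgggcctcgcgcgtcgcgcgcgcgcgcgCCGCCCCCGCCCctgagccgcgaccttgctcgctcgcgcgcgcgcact
Kmt2a, chr9:44881297-44881539, minus strand: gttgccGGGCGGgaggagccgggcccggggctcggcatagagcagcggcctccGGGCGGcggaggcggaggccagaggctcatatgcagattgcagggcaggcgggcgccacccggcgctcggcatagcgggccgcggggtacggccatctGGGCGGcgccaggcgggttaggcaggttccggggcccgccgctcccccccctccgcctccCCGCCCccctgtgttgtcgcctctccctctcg
Kmt5a, chr5:124439680-124439929, plus strand: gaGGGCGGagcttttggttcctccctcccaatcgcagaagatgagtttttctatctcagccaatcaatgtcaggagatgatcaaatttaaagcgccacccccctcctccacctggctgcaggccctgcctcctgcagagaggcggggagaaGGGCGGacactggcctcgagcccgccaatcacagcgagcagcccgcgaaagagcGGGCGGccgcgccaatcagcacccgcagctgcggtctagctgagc
The GC box was in 26 of 44 member windows (59.1%) and in 64.5% of the 9773 windows of genes tested. The ETS core was in 7 members, Kdm7a among them (15.9%, against 19%), the E-box CACGTG in 3 (6.82%, against 10.4%) and TATAAA in 3 (6.82%, against 6.63%). The cyclic AMP response element TGACGTCA was in 0 members (against 3.27%). The Kdm7a window is the richest in CpG among the members, with 65 in 300 bases, where the members' median is 21.5 and that of all genes 21. These are matches of letters in a fixed window and were not tested for binding.

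Other genes of the same pathways were read from lists of 32 further histone lysine enzymes, such as Ezh2 and Dot1l, and 35 partners in their complexes. Between genotypes the quasi-likelihood test called 0 of them in young and 0 in 1-year mice, and an unadjusted p below 0.05 was seen for 0 higher and 3 lower genes of each list in young mice (background 4.26% and 2.8%). In 1-year mice the unadjusted counts were 0 higher and 0 lower for the enzymes and 1 higher and 5 lower for the partners (background 4.45% and 5.65%). Their median log2 fold changes at 1 year were -0.13 and -0.08. Between ages, 1 of the enzymes was called higher and 2 lower in CTL mice, and 5 partners were called higher and 9 lower (background 6.7% higher and 8.07% lower). In CKO mice 1 of the enzymes was called higher and 1 lower, and 4 partners higher and 4 lower (background 7.21% and 9.34%). Msl1, a scaffold of the MSL acetyltransferase complex, had the smallest p in CKO mice, with -2.45 ± 0.33, and -1.07 ± 0.34 in CTL mice (edgeR adjusted p = 0.000173 and 0.04). The acetyltransferase Hat1 had the smallest p in CTL mice, with -1.46 ± 0.16 in CTL and -1.005 ± 0.146 in CKO mice (edgeR adjusted p = 3.67e-05 and 0.000201). Dpy30, a subunit shared by the COMPASS complexes, had -1.01 ± 0.17 and -0.83 ± 0.16, while the median of the 8 H3K4 methyltransferases was 0.71 in CTL and 0.29 in CKO mice (0.41 and 0.12 without mice 121 and 124, and 0.38 and 0.24 with the length trend removed). The values of Dpy30 are without that removal. Over all genes the CTL age contrast had a median of -0.29 under 2 kb of exon and 0.36 above 8 kb. In CKO mice these medians were -0.26 and 0.00605. Sirt6, an NAD-dependent deacetylase, rose by 1.33 ± 0.33 and 1.37 ± 0.31 on the log2 scale, and Mta1, a NuRD subunit, by 1.16 ± 0.26 and 1.16 ± 0.25.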

How the data were processed

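RNA was measured in 34 libraries of 17 mice. According to the study's methods, the authors used HISAT2 for alignment to GRCm38 and Rsubread for counts per gene, and the submitters' processing notes name HISAT2 and mm10. The deposited values are whole-number counts per gene and library without normalization (13108 rows, of which 11 had no counts in the libraries used and 20 had names turned into dates). Versions, annotation, use of strand and the rule for reads shared by paralogs are not given in the sources used here.

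The 2 libraries of each mouse were added up (1 library left out, 33 used), and the mouse was the replicate. filterByExpr chose the genes (10 counts at least, 15 in total), scaled by TMM and tested in R 4.3.3 with the quasi-likelihood test of edgeR 4.0.16 and Benjamini-Hochberg adjustment over all genes tested (threshold 0.05). Young and 1-year mice were fitted apart, and 1 fit of 17 mice with 4 group means gave the interaction and the age contrasts. Standard errors were derived from the log2 fold change and F. CPM are TMM-scaled over all mice. Exon length and coordinates come from GENCODE M21 (GRCm38). Precision rests on between 2218618 and 10125624 counts per mouse, and floors cover counting error only, since the libraries have no molecular identifiers. The fits were tested on simulated data.

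Named genes were Ythdf2, Ep300, Kdm7a, Crebbp, Kdm5c, Kdm5d and Kdm6a, the members called in a contrast (10 with the smallest p where more), the 4 with the smallest p in each direction, and the highest and lowest per length in each class. Any other named member was chosen after its values were seen. The members and lists were chosen with earlier results of these data known. The labels do not say whether the mice of a group shared litters. A marker gene is not reported here.

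Alternatives were DESeq2 1.42.0, its size factors, other filters, the likelihood ratio test over libraries, a Y-linked covariate, a replicate block, all mice in 1 fit, the mice 121 and 124 left out, each mouse left out in turn and, added after seeing the data, the length trend removed.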

Additional observations from a re-analysis of the deposited data

Results flagged for a closer look

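In 9 of 80 groups of mice examined, 1 mouse lay far from the others of its group, where chance alone would give about 4 (1 in 20). Ythdf2 was at 188.1 CPM in 1-year CKO mouse 121, and the next mouse was at 87.8 CPM. Kdm5d was at 23.9 CPM in young CKO mouse 1, 20.6 CPM in 1-year CTL mouse 99 and 24.4 CPM in 1-year CKO mouse 78, with the others of each group at 0. Hdac8 was at 29.6 CPM in young CKO mouse 2 (next 15.6) and at 19.3 CPM in 1-year CTL mouse 65 (next 11.1). Kmt5a was at 129.2 CPM in 1-year CTL mouse 124 (next 91.5) and at 129.6 CPM in 1-year CKO mouse 121 (next 96.2), the same mice whose Ythdf2 level went against their labels. Setd1b was at 10.3 CPM in 1-year CKO mouse 78, below the next at 17.9 CPM.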

How the results depend on the processing

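Between genotypes, 0 members were called in young mice and 0 in the interaction under every alternative run. In 1-year mice DESeq2 called 2 members (0.869% of all genes) and the likelihood ratio test over libraries 6 (3.73% of all genes), and the other alternatives 0. The median in 1-year mice was -0.15, and that of the interaction -0.0455, with the length trend removed. In the age contrast of CTL mice, 9 members were called with the Y-linked covariate (14% of all genes) and 5 of 56 with the length trend removed (10.8% of all genes), where the median was 0.34, and the median was 0.39 without mice 121 and 124. Without these 2 mice, 6 members were lower without overlap in 1-year CKO mice, where 5.45% of all genes were, and the Ythdf2 difference was -1.06.

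The Y-linked covariate turned the sign of Crebbp (0.00517), Kdm5c (-0.34) and Kdm5d (0.24) in young mice, of Kdm5c in the interaction (0.18) and of Kdm5d in the CTL age contrast (0.66). Kdm5c turned to 0.14 in 1-year mice with the length trend removed, and Kat5 to -0.0727 without mice 121 and 124. The length trend removed also turned Kmt2d (0.24), Kdm2a (0.14), Kmt5b (0.11), Kat6b (0.15), Kdm6b (0.00351) and Kdm1a (-0.0291) in 1-year mice, and leaving out mice 121 and 124 turned Hdac4, Hdac5, Hdac9, Setd3, Kdm4b, Kdm4c, Kmt5a and Kmt5c (between -0.31 and 0.26), none of them called. The cause was not tested.

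Leaving out each mouse in turn, the CTL age contrast called between 3 and 19 members (between 7.17% and 16.5% of all genes, median between 0.38 and 0.66) and the CKO one between 3 and 9 (the median 0.26 without mice 121 and 124, and between 9.46% and 21.3% of all genes). The 1-year median was between -0.38 and -0.13 and the interaction median between -0.34 and -0.0437. Members without overlap numbered between 1 and 3 (higher) and 5 and 8 (lower) in young mice, where the share of all genes was between 3.86% and 5.15% (higher) and 3.39% and 4.06% (lower). In 1-year mice they numbered between 0 and 1 (higher) and 3 and 8 (lower), and the share of all genes was between 2.22% and 4.76% and between 2.02% and 4.41%. In young mice the log2 fold change of Kdm7a was between -0.0537 and 0.40, of Crebbp between -0.34 and 0.34 and of Kdm5c between -0.0216 and 0.56. That of Kdm5c in 1-year mice was between -0.23 and 0.14, and the interaction of Kdm5d between -6.40 and 9.83.

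The replicate block on the numbers that young mice share called 0 members and 14 genes, against 20 without it, and moved the median to -0.04. Same-numbered mice correlated between -0.0436 and 0.0489. These values show no pairing by number but cannot exclude one, since the labels do not say whether same-numbered mice shared a litter.

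Groups of 4 or 5 mice limit the precision, and the doubted labels of mice 121 and 124 touch every 1-year value.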
